A study of Homo sapiens with 40 samples.

Results

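Transcripts of 10 genes of the integrated stress response and the unfolded protein response were followed in 2 human cell lines after knockdown of regulators of histone genes. The genes were chosen by Ensembl identifier: ATF4 (ENSG00000128272_at), ATF3 (ENSG00000162772_at), DDIT3 (ENSG00000175197_at), DDIT4 (ENSG00000168209_at), TRIB3 (ENSG00000101255_at), ASNS (ENSG00000070669_at), CHAC1 (ENSG00000128965_at), PSAT1 (ENSG00000135069_at), HSPA5 (ENSG00000044574_at) and XBP1 (ENSG00000100219_at). All 10 were present among the 22069 genes of the arrays. They were chosen with earlier results of these data known, so the counts among them are a description.

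hTERT-RPE1 is a normal retinal pigment epithelial line made immortal with telomerase, and U2OS is an osteosarcoma line. Both lines received pooled siRNAs at 15 nM, either control siRNA or siRNA against CASP8AP2 (FLASH), NPAT or HINFP, which regulate histone genes. Control and CASP8AP2 siRNA were profiled on days 1 and 2 with 3 arrays per group, and all siRNA pools were profiled on day 3 with 2 arrays per group, which gave 40 arrays in 16 groups. Every array therefore came from transfected cells, the day 3 duplicates were transfected simultaneously, and normal and tumor cells are each represented by a single line. The paper grew U2OS cells in DMEM and hTERT-RPE1 cells in a mixture of F12 and DMEM with hygromycin B. Differences between the lines therefore cannot be told apart from differences of medium. No source used here states that the replicates of days 1 and 2 were separate experiments, so the p-values measure the spread between these arrays, which may be technical.

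ATF4 is a transcription factor made when phosphorylation of the translation factor eIF2 alpha slows general protein synthesis. Its control lies largely in the translation of its mRNA, which an array of transcripts does not measure. ATF4 and its partners switch on ATF3 and DDIT3 (CHOP), which are transcription factors themselves, the stress effectors DDIT4, TRIB3 and CHAC1, and enzymes of amino acid synthesis such as ASNS and PSAT1. HSPA5 (BiP), the main chaperone of the endoplasmic reticulum, and XBP1, a transcription factor activated by splicing of its mRNA, belong to the arm that answers unfolded protein in the endoplasmic reticulum. The array gives XBP1 a single value for the gene and does not separate spliced from unspliced mRNA.

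The promoters of 5 of these genes hold a letter match to a response element of the pathways, and they are shown because the elements are those through which each arm is known to act. The windows are from RefSeq (GRCh38.p14) and run from 250 bases before to 50 bases after a start site, read 5′ to 3′ on the strand of the gene. Capitals mark the match. The ASNS window is chr7:97872359-97872658 (minus strand), the CHAC1 window chr15:40953221-40953520 (plus strand), the ATF3 window chr1:212565157-212565456 (plus strand), the HSPA5 window chr9:125241294-125241593 (minus strand) and the XBP1 window chr22:28800520-28800819 (minus strand).
ASNS: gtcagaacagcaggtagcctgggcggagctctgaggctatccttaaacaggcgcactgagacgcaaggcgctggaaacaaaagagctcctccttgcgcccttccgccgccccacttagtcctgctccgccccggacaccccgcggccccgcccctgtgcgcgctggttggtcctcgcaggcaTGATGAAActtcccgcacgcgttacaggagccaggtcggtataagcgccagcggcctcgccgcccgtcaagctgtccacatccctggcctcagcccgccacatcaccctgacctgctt
CHAC1: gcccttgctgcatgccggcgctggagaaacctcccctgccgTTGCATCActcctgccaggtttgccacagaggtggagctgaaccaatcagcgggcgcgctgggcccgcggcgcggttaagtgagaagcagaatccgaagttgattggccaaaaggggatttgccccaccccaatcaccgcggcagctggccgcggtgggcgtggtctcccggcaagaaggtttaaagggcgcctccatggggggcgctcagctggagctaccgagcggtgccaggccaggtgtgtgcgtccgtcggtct
ATF3: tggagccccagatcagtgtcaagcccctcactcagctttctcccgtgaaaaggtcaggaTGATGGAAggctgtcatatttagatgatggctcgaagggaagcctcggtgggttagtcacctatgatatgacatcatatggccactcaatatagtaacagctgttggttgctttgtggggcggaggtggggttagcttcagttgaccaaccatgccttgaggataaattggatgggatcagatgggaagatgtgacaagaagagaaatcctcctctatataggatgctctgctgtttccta
HSPA5: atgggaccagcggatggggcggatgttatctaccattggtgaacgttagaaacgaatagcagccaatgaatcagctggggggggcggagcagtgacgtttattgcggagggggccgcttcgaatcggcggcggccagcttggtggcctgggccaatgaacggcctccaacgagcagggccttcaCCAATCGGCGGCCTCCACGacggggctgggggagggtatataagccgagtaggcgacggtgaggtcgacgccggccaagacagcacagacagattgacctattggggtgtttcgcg
XBP1: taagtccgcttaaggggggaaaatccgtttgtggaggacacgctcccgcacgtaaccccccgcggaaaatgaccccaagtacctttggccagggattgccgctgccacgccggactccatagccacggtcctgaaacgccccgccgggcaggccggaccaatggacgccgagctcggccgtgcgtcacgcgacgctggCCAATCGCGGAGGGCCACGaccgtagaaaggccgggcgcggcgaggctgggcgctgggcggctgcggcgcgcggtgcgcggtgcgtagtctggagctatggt

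The windows shown of ASNS, CHAC1 and ATF3 match TGATGNAA, the element bound by C/EBP and ATF proteins. Those of HSPA5 and XBP1 match the endoplasmic reticulum stress element, which is CCAAT and CCACG with a spacer of any 9 bases. ASNS, ATF3 and XBP1 each have another window at a different start site, which holds no match and is not shown. The TGATGNAA match began at position -68 from the start site in ASNS, at -191 in ATF3, and, on the opposite strand, at -209 in CHAC1. The stress element began at position -66 in HSPA5 and at -52 in XBP1. On both strands, TGATGNAA was found in 3 of the 17 windows of the 10 genes and in 1270 of all 35116 windows (3.62%). The stress element was found in 2 of these windows and in 27 of all windows (0.0769%). The second stress element, ATTGG and CCACG with any 1 base between (0.0541% of all windows), the unfolded protein response element TGACGTGG (0.729%) and the cyclic AMP response element TGACGTCA (1.85%) had no match in the 17 windows. A match describes letters only, and its absence says nothing of sites outside these windows.

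**Figure D1:**
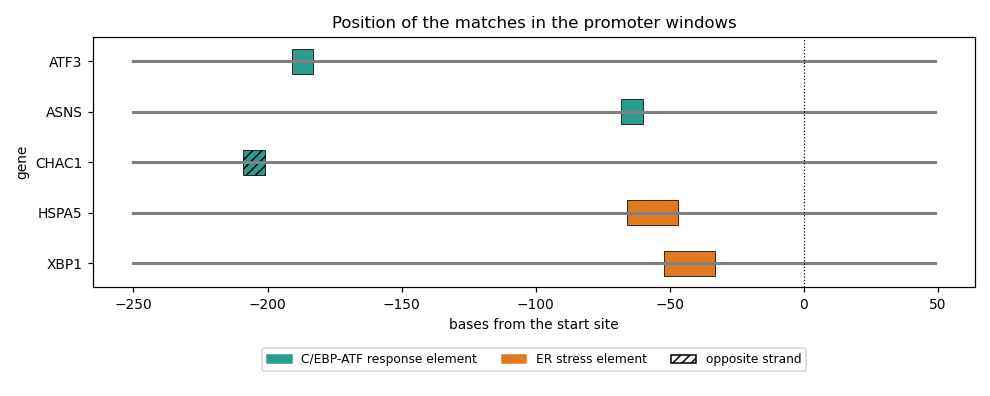
Position of each match along the 300-base promoter window, in bases from the start site (dotted line); colour gives the element and hatching a match on the opposite strand. The 3 matches of the C/EBP-ATF element begin at -209, -191 and -68, and those of the stress element at -66 and -52.

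The deposited values are on the log2 scale. The day 3 arrays were taken as normalized apart from those of the earlier days, so no level is compared across that border, and each change is relative to the other genes of the array. Genes with an adjusted p under 0.05 are described as called (limma, Benjamini-Hochberg over the 22069 genes). A call is said to hold throughout where neither another scaling, nor the omission of dim genes, nor a fit of only the arrays compared, nor the omission of any single array ended it; a minimum size of change is not counted here. The targeted transcripts were lower on every siRNA array than on every control array in all 10 comparisons. CASP8AP2 siRNA left 55.5% to 59.1% of its transcript in hTERT-RPE1 cells and 30.1% to 44.3% in U2OS cells, and the part of this difference in the results was not tested. NPAT siRNA left 40.3% in hTERT-RPE1 and 33.3% in U2OS cells, and HINFP siRNA left 48.4% and 32.0%. Of 8 retinal pigment epithelium markers the 2 with a paired symbol (BEST1 and RLBP1) had control means of 3.55 to 4.28 in both lines, below the medians of the arrays (5.23 to 5.67). Of 8 osteoblast markers RUNX2 had control means of 9.57 to 9.67 in hTERT-RPE1 and 7.34 to 7.87 in U2OS cells, and IBSP 3.47 to 4.21 in both. Between the control arrays RUNX2 was called lower in U2OS cells on all 3 days and IBSP on days 1 and 2 (-0.44 and -0.24), against the labelled osteosarcoma origin. The means of IBSP also lay below the medians of the arrays in both lines, so its differences are among the less certain. RLBP1 was called lower in U2OS cells on day 3 alone (-0.23) and BEST1 on no day. In such bulk samples, fewer cells of a kind and less RNA per cell cannot be told apart.

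CASP8AP2 siRNA raised most of the 10 stress genes in U2OS cells. In U2OS cells 9 of the 10 rose on day 1, 8 rose on day 2, and on day 3 6 rose and 1 fell. Over all genes 2.86% were called higher and 3.01% lower on day 1, 11.8% and 13.1% on day 2, and 7.91% and 11% on day 3. In hTERT-RPE1 cells limma called 0 of the 10 on day 1, where 4 had an unadjusted p under 0.05. On day 2 of hTERT-RPE1 cells 4 rose and 0 fell, and on day 3 0 rose and 3 fell. The share of all genes called higher and lower there was 0.449% and 0.344% on day 1, 4.25% and 2.16% on day 2, and 3.62% and 2.54% on day 3. The median log2 difference of the 10 genes was 0.47, 0.50 and 0.44 on days 1, 2 and 3 in U2OS cells and 0.14, 0.13 and -0.19 in hTERT-RPE1 cells, while the median over all genes in these comparisons lay between -0.032 and 0.015. The split of all called genes moved with scaling. When arrays were centred on their medians, 41.9% of called genes were higher in hTERT-RPE1 cells on day 2 (66.3% as deposited) and 31.5% in U2OS cells on day 3 (41.9% as deposited), and after cyclic loess 60.6% were higher in U2OS cells on day 2 (47.3% as deposited).

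**Figure D2:**
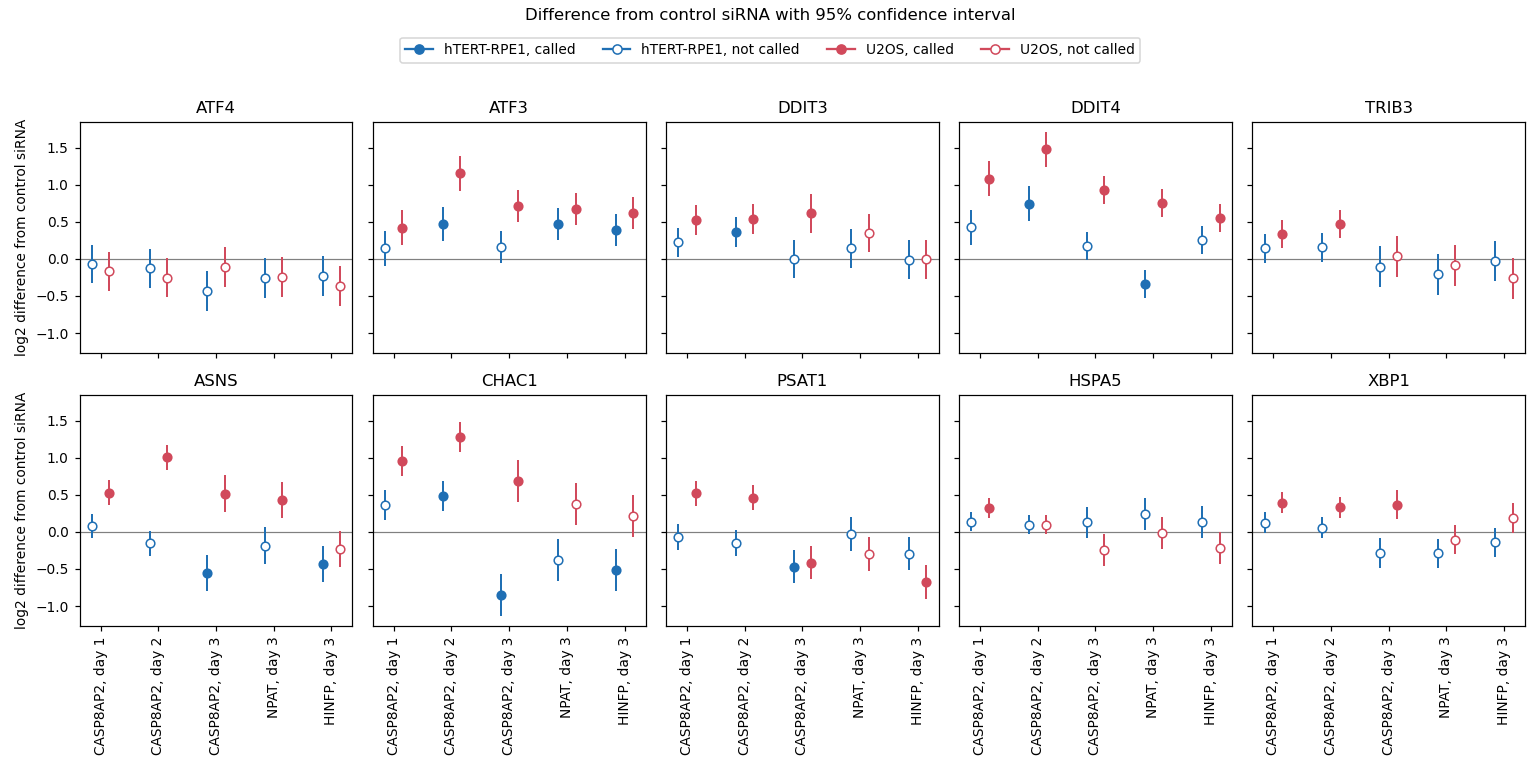
Log2 difference between targeting and control siRNA for each gene (vertical axis) by siRNA and day (horizontal axis), with the 95% confidence interval; blue is hTERT-RPE1, red is U2OS, and filled points were called. ATF4 is open throughout, DDIT4 reaches the highest point (1.48 in U2OS cells on day 2), and CHAC1 and ASNS lie on opposite sides of 0 in the 2 lines under CASP8AP2 siRNA on day 3.

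The transcript of ATF4 itself was not called in any of the 10 comparisons of an siRNA with control. In U2OS cells ATF4 read 10.47, 10.52 and 10.44 with control and 10.52, 10.43 and 9.97 with CASP8AP2 siRNA on day 1, a log2 difference of -0.17 (95% confidence interval -0.41 to 0.08). On day 2 of U2OS cells it read 10.15, 10.34 and 10.63 with control and 10.10, 10.07 and 10.19 with CASP8AP2 siRNA (-0.25, -0.50 to -0.01, adjusted p = 0.134). The arrays of these groups overlapped on both days, and without control replicate 1 the day 2 difference was called. In hTERT-RPE1 cells on day 3 ATF4 read 10.06 and 10.02 with control and 9.68 and 9.53 with CASP8AP2 siRNA, and both siRNA arrays lay below both controls. That difference of -0.43 (-0.69 to -0.18) missed the threshold with an adjusted p of 0.0504, and it was called after either rescaling and without dim genes. The differences under NPAT and HINFP siRNA on day 3 were -0.26 and -0.23 in hTERT-RPE1 cells and -0.25 and -0.37 in U2OS cells, and none passed the test. All 10 estimates of ATF4 were below 0, but those of day 3 within a line share the same control arrays and are not independent.

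ATF3, a stress-inducible transcription factor that ATF4 raises, rose in U2OS cells under every siRNA. ATF3 read 6.24, 6.20 and 6.32 with control and 7.42, 7.39 and 7.41 with CASP8AP2 siRNA on day 2 of U2OS cells, so the 3 siRNA arrays lay far above the controls and close together. This was a rise of 1.15 (SE 0.11, 2.22-fold, adjusted p = 4.41e-08), after 0.42 on day 1 (adjusted p = 0.0188). The call of day 1 was lost in a fit of only the arrays compared and without control replicate 2 or 3 or CASP8AP2 replicate 2 (0.40, 0.38 and 0.31, adjusted p 0.0652 to 0.124). On day 3 ATF3 read 6.74 and 6.56 with control, 7.36 and 7.37 with CASP8AP2, 7.28 and 7.37 with NPAT and 7.31 and 7.22 with HINFP siRNA in U2OS cells. These were rises of 0.71, 0.67 and 0.62 (adjusted p = 0.000256, 0.000973 and 0.00118) against the same pair of control arrays, and every one was kept without any single array. In hTERT-RPE1 cells ATF3 rose by 0.47 with CASP8AP2 siRNA on day 2 (adjusted p = 0.00781), where it read 5.89, 5.73 and 5.78 with control and 6.35, 6.07 and 6.39 with the siRNA. That call was lost without CASP8AP2 replicate 3 (0.41, adjusted p = 0.0574) and in a fit of only these arrays. The differences in hTERT-RPE1 cells were 0.14 on day 1 and 0.16 on day 3, neither of them called.

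DDIT3, known as CHOP, promotes cell death when endoplasmic reticulum stress persists. In U2OS cells DDIT3 rose with CASP8AP2 siRNA by 0.52, 0.53 and 0.61 on days 1, 2 and 3 (adjusted p = 0.000701, 0.000102 and 0.00269), which is 1.44-fold, 1.45-fold and 1.53-fold. It read 7.79, 7.88 and 7.78 with control and 8.35, 8.39 and 8.27 with the siRNA on day 1, 8.24, 8.33 and 8.19 against 8.76, 8.78 and 8.83 on day 2, and 7.54 and 7.50 against 8.21 and 8.06 on day 3. Every siRNA array lay above every control of its day, and these calls held throughout. In hTERT-RPE1 cells DDIT3 rose on day 2 by 0.36 (adjusted p = 0.0145), with 8.01, 7.84 and 7.64 in control and 8.13, 8.07 and 8.39 in siRNA arrays. This call was lost without control replicate 3 or CASP8AP2 replicate 3 (0.27 each, adjusted p = 0.0948 and 0.116) and in a fit of only these arrays. The difference was 0.22 on day 1 (0.04 to 0.41, adjusted p = 0.385), and on day 3 its interval ran from -0.25 to 0.25.

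DDIT4 (REDD1), an inhibitor of mTORC1 signaling, had the largest rise of the 10 genes in each U2OS comparison of CASP8AP2 siRNA with control. It read 5.90, 5.92 and 5.95 with control and 7.02, 7.12 and 6.87 with the siRNA on day 1, a rise of 1.08 (SE 0.11, 2.12-fold, adjusted p = 9.03e-07). On day 2 it read 7.08, 6.99 and 6.87 against 8.54, 8.41 and 8.42 (1.48, 2.78-fold, adjusted p = 1.29e-09), and on day 3 6.73 and 6.76 against 7.65 and 7.70 (0.93, 1.90-fold, adjusted p = 1.6e-05). Every siRNA array lay above every control, and these calls held throughout. In hTERT-RPE1 cells DDIT4 rose by 0.75 on day 2 (1.68-fold, adjusted p = 8.1e-05), with 7.01, 7.35 and 6.80 in control and 7.73, 7.78 and 7.90 in siRNA arrays, and this call also held throughout. The differences on day 1 (0.42, 0.20 to 0.65, adjusted p = 0.069) and day 3 (0.17, -0.01 to 0.35) were not called, although the siRNA arrays lay above the controls on both days. On day 1 the call appeared when dim genes were left out.

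CHAC1, which breaks down the antioxidant glutathione, rose in U2OS cells and fell in hTERT-RPE1 cells on day 3. In U2OS cells CHAC1 read 8.47, 8.61 and 8.46 with control and 9.59, 9.44 and 9.36 with CASP8AP2 siRNA on day 1 (0.95, 1.93-fold, adjusted p = 6.7e-07). On day 2 it read 8.78, 8.81 and 8.96 against 10.11, 10.14 and 10.15 (1.28, 2.43-fold, adjusted p = 1.11e-09), and on day 3 8.44 and 8.29 against 8.99 and 9.11 (0.69, 1.61-fold, adjusted p = 0.00233). In hTERT-RPE1 cells it rose by 0.48 on day 2 (adjusted p = 0.0016), where it read 6.79, 7.12 and 6.81 with control and 7.28, 7.41 and 7.49 with the siRNA. On day 3 of hTERT-RPE1 cells it read 7.08 and 7.25 with control and 6.20 and 6.42 with the siRNA, a fall to 55.3% of control (log2 difference -0.85, SE 0.13, adjusted p = 0.00117). The groups did not overlap in any of these comparisons. The call of hTERT-RPE1 cells on day 2 was lost in a fit of only the arrays compared, and the other 4 calls held throughout. The difference on day 1 of hTERT-RPE1 cells was 0.36 (0.17 to 0.55, adjusted p = 0.0734), and it was called without dim genes or without CASP8AP2 replicate 3.

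TRIB3, a pseudokinase that restrains ATF4 and AKT signaling, changed less. In U2OS cells TRIB3 read 7.24, 7.51 and 7.19 with control and 7.68, 7.69 and 7.59 with CASP8AP2 siRNA on day 1 (0.34, adjusted p = 0.0193), and 7.35, 7.40 and 7.32 against 7.92, 7.80 and 7.77 on day 2 (0.47, adjusted p = 0.000248). The call of day 1 was lost in a fit of only these arrays and without any one of control replicates 1 and 3 and CASP8AP2 replicates 1 and 2 (0.28 to 0.32, adjusted p 0.0718 to 0.107), while that of day 2 held throughout. On day 3 the difference was 0.03 (-0.23 to 0.29). No comparison in hTERT-RPE1 cells was called, and the estimates there ran from -0.21 with NPAT siRNA to 0.16 with CASP8AP2 siRNA on day 2.

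ASNS, which makes asparagine, rose in U2OS cells on all 3 days and fell in hTERT-RPE1 cells on day 3. In U2OS cells ASNS read 7.90, 7.74 and 7.62 with control and 8.26, 8.36 and 8.22 with CASP8AP2 siRNA on day 1 (0.53, adjusted p = 8.33e-05). On day 2 it read 8.04, 8.15 and 8.00 against 9.02, 9.03 and 9.14 (1.00, SE 0.07, adjusted p = 1.85e-09), and on day 3 8.63 and 8.51 against 9.20 and 8.97 (0.52, adjusted p = 0.00484). The siRNA arrays lay above the controls each time, and the day 3 call was lost without CASP8AP2 replicate 1 (0.40, adjusted p = 0.0667). In hTERT-RPE1 cells ASNS read 6.89 and 7.09 with control and 6.51 and 6.36 with CASP8AP2 siRNA on day 3, a fall to 68.1% of control (-0.55, adjusted p = 0.0078). That call was lost without control replicate 2 (-0.46, adjusted p = 0.0591) or CASP8AP2 replicate 2 (-0.48, adjusted p = 0.0895) and in a fit of only these arrays. On days 1 and 2 the differences in hTERT-RPE1 cells were 0.08 and -0.16, neither called.

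PSAT1, an aminotransferase of serine synthesis, turned from a rise to a fall in U2OS cells. PSAT1 read 8.74, 8.56 and 8.58 with control and 9.03, 9.25 and 9.15 with CASP8AP2 siRNA on day 1 (0.52, adjusted p = 0.000131), and 9.17, 9.15 and 9.24 against 9.63, 9.66 and 9.66 on day 2 (0.46, adjusted p = 8.3e-05). On day 3 it read 9.49 and 9.44 with control and 9.03 and 9.07 with the siRNA (-0.42, adjusted p = 0.0103). The siRNA arrays lay above the controls on days 1 and 2 and below them on day 3, in a set that was not tested against the earlier days. The day 3 call was lost without control replicate 1 or CASP8AP2 replicate 1 (-0.39 and -0.40, adjusted p = 0.0718 and 0.0739). In hTERT-RPE1 cells PSAT1 differed by -0.07 and -0.15 on days 1 and 2, neither called, and fell on day 3 by 0.47 (adjusted p = 0.013), from 9.29 and 9.22 to 8.84 and 8.73. This fall was not called without control replicate 1 or CASP8AP2 replicate 2 (-0.43 and -0.42, adjusted p = 0.0684 and 0.12) or in a fit of only these arrays.

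HSPA5 and XBP1, the genes of the endoplasmic reticulum arm among the 10, had small differences, none above 0.39 with CASP8AP2 siRNA. HSPA5 read 11.78, 11.78 and 11.63 with control and 12.03, 12.11 and 12.03 with CASP8AP2 siRNA on day 1 of U2OS cells, a rise of 0.32 (1.25-fold, adjusted p = 0.000902) that was not called in a fit of those arrays alone. On day 2 the difference was 0.10 (-0.02 to 0.21, adjusted p = 0.252), called after cyclic loess, and on day 3 it was -0.24 (-0.44 to -0.04, adjusted p = 0.0887), called after median centring. In hTERT-RPE1 cells HSPA5 differed by 0.14, 0.09 and 0.13 on the 3 days, and none was called. XBP1 rose in U2OS cells by 0.39, 0.33 and 0.37 (adjusted p = 0.000321, 0.000309 and 0.00926), with 9.87, 9.91 and 9.87 in control and 10.32, 10.32 and 10.17 in siRNA arrays on day 1, 9.96, 9.95 and 10.12 against 10.36, 10.31 and 10.36 on day 2, and 9.61 and 9.56 against 10.03 and 9.87 on day 3. Every XBP1 siRNA array lay above every control of its day. The day 3 call was lost without control replicate 2 or CASP8AP2 replicate 1 (0.34 and 0.29, adjusted p = 0.0645 and 0.104) and in a fit of only those arrays. In hTERT-RPE1 cells XBP1 differed by 0.12, 0.05 and -0.29, and the last (adjusted p = 0.0687) was called only without dim genes. The promoter window of HSPA5 and 1 of the windows of XBP1 hold the stress element. The windows of DDIT4, DDIT3, TRIB3 and PSAT1, which rose in U2OS cells on day 2 as ASNS, CHAC1 and ATF3 did, hold none of the elements searched.

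**Figure D3:**
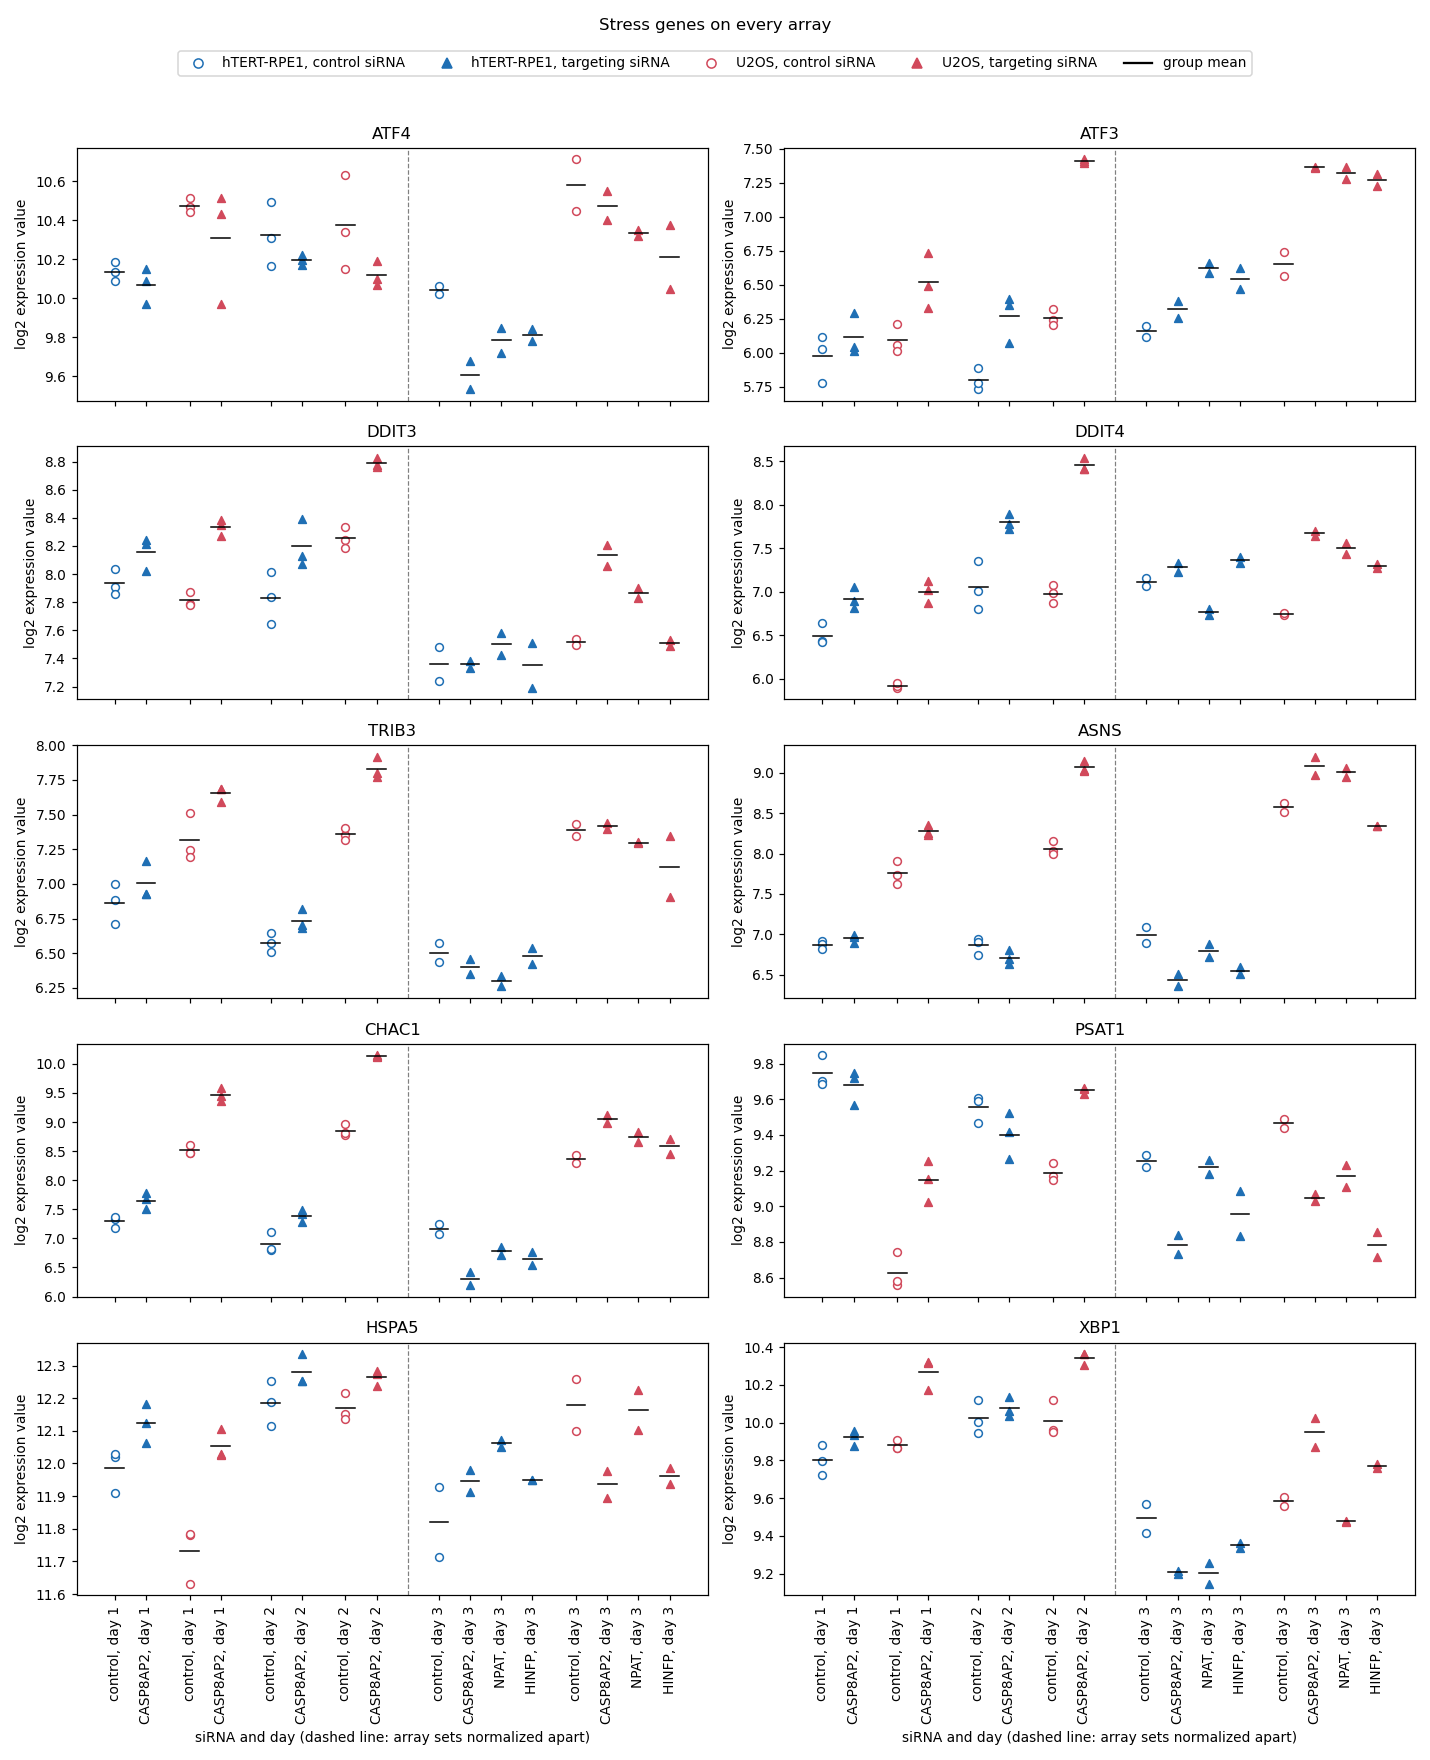
Log2 expression value of each gene on each of the 40 arrays (points), with group means (black bars), by siRNA and day; blue is hTERT-RPE1, red is U2OS, open circles are control siRNA and filled triangles targeting siRNA, and arrays on either side of the dashed line were taken as normalized apart. The red triangles of CASP8AP2 siRNA on day 2 stand clear above the open circles for ATF3, DDIT4, ASNS and CHAC1, while those of ATF4 overlap the controls.

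NPAT and HINFP siRNA were profiled on day 3 only, against the control arrays that CASP8AP2 siRNA also used. In U2OS cells NPAT siRNA raised 3 of the 10 genes (3.84% of all genes were called higher and 4.29% lower), and HINFP siRNA raised 2 and lowered 1 (4.59% higher and 4.84% lower). In hTERT-RPE1 cells NPAT siRNA raised 1 and lowered 1 (2.37% and 2.67% of all genes), and HINFP siRNA raised 1 and lowered 2 (2.13% and 2.01%). The median differences of the 10 genes were 0.17 and -0.11 in U2OS and -0.20 and -0.08 in hTERT-RPE1 cells. After median centring 33.0% of the genes called under NPAT siRNA in U2OS cells were higher, after cyclic loess 57.3%, and as deposited 47.2%, and under HINFP siRNA in hTERT-RPE1 cells centring moved this share from 51.5% to 62.4%.

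DDIT4 and ATF3 were the genes raised by both siRNAs in U2OS cells. DDIT4 read 7.56 and 7.44 with NPAT and 7.27 and 7.32 with HINFP siRNA against 6.73 and 6.76 with control, rises of 0.76 (adjusted p = 0.000148) and 0.55 (adjusted p = 0.00111) that held without any single array. ASNS rose with NPAT siRNA to 9.06 and 8.94 from 8.63 and 8.51 (0.43, adjusted p = 0.0261), a call lost without any one of the 4 arrays (0.37 to 0.49, adjusted p 0.079 to 0.15). With HINFP siRNA ASNS read 8.34 and 8.34, a difference of -0.23 (-0.46 to 0.00, adjusted p = 0.226). PSAT1 fell with HINFP siRNA from 9.49 and 9.44 to 8.86 and 8.71 (-0.68, to 62.4% of control, adjusted p = 0.000943), and this call held throughout. CHAC1 differed by 0.38 and 0.22 and DDIT3 by 0.35 and -0.01 under NPAT and HINFP siRNA, and none of these was called. HSPA5, XBP1 and TRIB3 were not called either, with estimates from -0.26 (TRIB3, HINFP) to 0.19 (XBP1, HINFP).

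In hTERT-RPE1 cells ATF3 was again raised by both siRNAs. ATF3 read 6.66 and 6.59 with NPAT and 6.47 and 6.62 with HINFP siRNA against 6.20 and 6.12 with control, rises of 0.47 (adjusted p = 0.0132) and 0.39 (adjusted p = 0.036). The first call was lost without control replicate 2 or either NPAT array (0.43 to 0.50, adjusted p 0.0512 to 0.123), and the second without any one of its 4 arrays (0.31 to 0.46, adjusted p 0.0633 to 0.198). DDIT4 fell with NPAT siRNA from 7.07 and 7.16 to 6.74 and 6.81 (-0.34, adjusted p = 0.032), a call lost without control replicate 2 or either NPAT array (-0.38 to -0.29, adjusted p 0.092 to 0.21), and with HINFP siRNA it differed by 0.25, which was not called. ASNS and CHAC1 fell with HINFP siRNA by 0.43 and 0.51 (adjusted p = 0.0398 and 0.0395), ASNS from 6.89 and 7.09 to 6.51 and 6.60 and CHAC1 from 7.08 and 7.25 to 6.55 and 6.76. The ASNS call was lost without control replicate 2 or either HINFP array (-0.48 to -0.34, adjusted p 0.106 to 0.225), the CHAC1 call without any one of the 4 arrays (-0.62 to -0.40, adjusted p 0.0561 to 0.258), and both after median centring. All 5 calls of these siRNAs in hTERT-RPE1 cells were lost in fits of only the arrays compared.

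The siRNAs were then compared with each other on day 3, without the control arrays. In U2OS cells HINFP differed from CASP8AP2 siRNA in 4 of the 10 genes (5.6% of all genes were called), each lower with HINFP. These were ASNS (-0.74, adjusted p = 0.00176), DDIT3 (-0.62, adjusted p = 0.0084), CHAC1 (-0.47, adjusted p = 0.0465) and DDIT4 (-0.38, adjusted p = 0.019), and in each the HINFP arrays lay below the CASP8AP2 arrays. Without any one of the 4 arrays the DDIT4 call (-0.40 to -0.35, adjusted p 0.0606 to 0.0997) and the CHAC1 call (-0.60 to -0.34, adjusted p 0.0614 to 0.255) were lost, and the DDIT3 call was lost without CASP8AP2 replicate 1 or HINFP replicate 1 (-0.55 and -0.60, adjusted p = 0.0929 and 0.0515). NPAT differed from CASP8AP2 siRNA in XBP1 alone (-0.47, adjusted p = 0.00946, with 3.5% of all genes called), where it read 9.47 and 9.48 with NPAT and 10.03 and 9.87 with CASP8AP2 siRNA. That call was lost without CASP8AP2 replicate 1 or either NPAT array (-0.48 to -0.39, adjusted p 0.0605 to 0.107). In hTERT-RPE1 cells DDIT4 was lower (-0.51, adjusted p = 0.00456) and PSAT1 higher (0.44, adjusted p = 0.0345) with NPAT than with CASP8AP2 siRNA (2.38% of all genes called). The DDIT4 call was lost without CASP8AP2 replicate 2 or NPAT replicate 1 (-0.46 and -0.47, adjusted p = 0.0703 and 0.0724), and the PSAT1 call without any one of the 4 arrays (0.38 to 0.49, adjusted p 0.0915 to 0.272). HINFP and CASP8AP2 siRNA differed by limma in 0 of the 10 genes there (3.81% of all genes), with 2 at an unadjusted p under 0.05. All of these calls were lost in fits of only the arrays compared.

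Whether the cell lines differed in their response was tested by subtracting the effect in hTERT-RPE1 cells from that in U2OS cells. Under CASP8AP2 siRNA 4 of the 10 genes differed on day 1 (0.689% of all genes were called), 6 on day 2 (9.39%) and 6 on day 3 (9.55%), each with the more positive effect in U2OS cells. On day 2 these were ASNS (1.16, 95% confidence interval 0.94 to 1.38, adjusted p = 2.39e-07), CHAC1 (0.80), DDIT4 (0.73), ATF3 (0.68), PSAT1 (0.61) and XBP1 (0.28, adjusted p = 0.0485). The first 5 of these calls held throughout, and that of XBP1 was lost without any one of 9 of the 12 arrays (0.23 to 0.30, adjusted p 0.0582 to 0.12). On day 3 the difference was largest for CHAC1 (1.54, 1.16 to 1.92, adjusted p = 0.000313), followed by ASNS (1.07), DDIT4 (0.76), XBP1 (0.65), DDIT3 (0.62) and ATF3 (0.55). The calls of CHAC1, ASNS, DDIT4 and XBP1 held throughout. That of ATF3 was lost without hTERT-RPE1 CASP8AP2 replicate 1, U2OS control replicate 2 or U2OS CASP8AP2 replicate 1 (0.46 to 0.56, adjusted p 0.0631 to 0.0846), and that of DDIT3 without any one of 6 of the 8 arrays (0.50 to 0.64, adjusted p 0.0634 to 0.123).

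On day 1 the calls of the line difference were close to the threshold. They were DDIT4 (0.66, adjusted p = 0.0438), CHAC1 (0.59, adjusted p = 0.0316), PSAT1 (0.59, adjusted p = 0.0103) and ASNS (0.45, adjusted p = 0.0499). PSAT1 was kept without any single array, while DDIT4, ASNS and CHAC1 were lost without any one of 10, 11 and 8 of the 12 arrays (adjusted p 0.0546 to 0.134). Each of these calls, that of PSAT1 included, was lost when replicate number was added to the fit as a block. Under NPAT siRNA 3 genes differed between the lines (3.46% of all genes), DDIT4 (1.10, adjusted p = 0.000425), CHAC1 (0.76, adjusted p = 0.0362) and ASNS (0.62, adjusted p = 0.0433). DDIT4 held throughout, and CHAC1 and ASNS were each lost without any one of 7 of the 8 arrays (adjusted p 0.0639 to 0.131). Under HINFP siRNA the lines differed in CHAC1 alone (0.73, adjusted p = 0.0442, with 3.15% of all genes called), which was lost without any one of 6 of the 8 arrays (0.60 to 0.84, adjusted p 0.064 to 0.16). ATF4, TRIB3 and HSPA5 did not pass this test under any siRNA or day.

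**Figure D4:**
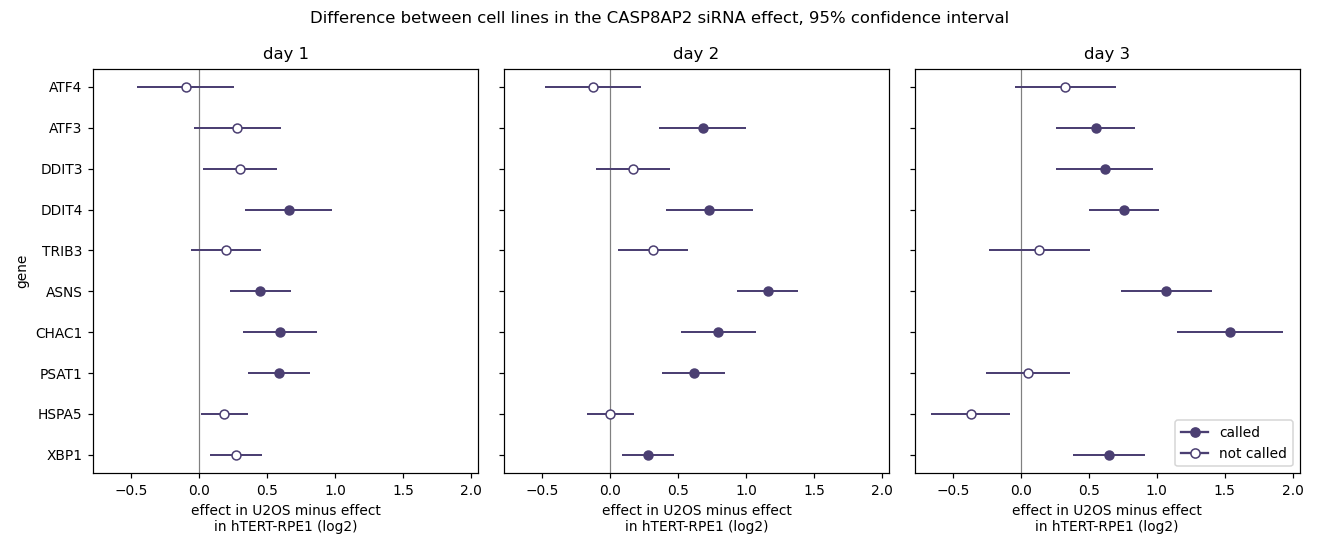
Effect of CASP8AP2 siRNA in U2OS cells minus its effect in hTERT-RPE1 cells (horizontal axis, log2) for each gene (vertical axis) on days 1, 2 and 3, with 95% confidence intervals; filled points were called. ASNS stands out on day 2 (1.16) and CHAC1 on day 3 (1.54), and no point left of 0 is filled.

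The change of the CASP8AP2 effect from day 1 to day 2 was called for 2 genes in U2OS cells (7.04% of all genes), ATF3 (0.73, adjusted p = 0.00397) and ASNS (0.48, adjusted p = 0.00667). Both calls held throughout. In hTERT-RPE1 cells limma called 0 of the 10 (0.652% of all genes), and 3 had an unadjusted p under 0.05. The control arrays moved over the same time. In U2OS controls 6 of the 10 genes rose from day 1 to day 2 (13% of all genes were called), DDIT4 by 1.06, PSAT1 by 0.56, DDIT3 and HSPA5 by 0.44 each, CHAC1 by 0.34 and ASNS by 0.31. The call of ASNS was lost without day 1 replicate 3 (0.24, adjusted p = 0.0529), and that of CHAC1 without day 1 replicate 1 or 3 or day 2 replicate 3 (0.28 to 0.31, adjusted p 0.0587 to 0.0855). In hTERT-RPE1 controls (10% of all genes called) DDIT4 rose by 0.56, XBP1 by 0.22 and HSPA5 by 0.20, CHAC1 fell by 0.38 and TRIB3 fell by 0.29. The calls of XBP1 (0.17 to 0.22, adjusted p 0.0693 to 0.128) and HSPA5 (0.16 to 0.20, adjusted p 0.0611 to 0.138) were each lost without any one of 3 of the 6 arrays, and that of TRIB3 without any one of 4 (-0.29 to -0.22, adjusted p 0.0766 to 0.177). All of these hTERT-RPE1 calls, those of DDIT4 and CHAC1 included, were lost in a fit of only the arrays compared. For DDIT4 in U2OS cells the rise over time in controls (1.06) was thus close in size to the rise with CASP8AP2 siRNA on day 1 (1.08).

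The lines also differed before any targeted knockdown. With control siRNA 7 of the 10 genes differed between U2OS and hTERT-RPE1 cells on day 1 (4 higher in U2OS, 3 lower), 6 on day 2 (5 and 1) and 7 on day 3 (6 and 1), where 48.7%, 50.8% and 43.8% of all genes were called. These counts are not far from those shares and are not read as particular to the 10 genes. CHAC1 was 1.22, 1.94 and 1.20 higher in U2OS cells on days 1, 2 and 3 (2.33-fold, 3.85-fold and 2.30-fold), ASNS 0.88, 1.20 and 1.58 higher, and TRIB3 0.45, 0.78 and 0.88 higher. PSAT1 was lower in U2OS cells on day 1 (-1.12) and day 2 (-0.37), while on day 3 it differed by 0.21, which was not called. DDIT4 was lower in U2OS cells on day 1 (-0.58) and day 3 (-0.37). ATF3 was higher on days 2 and 3 (0.45 and 0.49) and DDIT3 on day 2 (0.42). HSPA5 was lower on day 1 (-0.25) and higher on day 3 (0.36), a call lost without replicate 1 of either line (0.25 and 0.28, adjusted p = 0.0661 and 0.0733). ATF4 was higher on day 1 (0.34, lost without replicate 2 of either line, 0.31 and 0.32, adjusted p = 0.0631 and 0.0603) and on day 3 (0.54), and XBP1 did not differ by the test on any day. Centring arrays on their medians lowered all of these differences on days 1 and 2, by 0.124 and 0.155, without turning the sign of any called one.

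The wider pathway was followed in lists of known genes, of which only those that the authors' screen pairs with an identifier could be read. Of 59 further targets of the integrated stress response 12 were paired, and under CASP8AP2 siRNA in U2OS cells 3, 5 and 3 of them rose on days 1, 2 and 3, and 0, 1 and 1 fell. In hTERT-RPE1 cells 0 rose on any day, and 0, 1 and 1 fell. Over all genes 2.86%, 11.8% and 7.91% were called higher and 3.01%, 13.1% and 11% lower in U2OS cells on these days. In hTERT-RPE1 cells these shares were 0.449%, 4.25% and 3.62% higher and 0.344%, 2.16% and 2.54% lower, so 0 rises among 12 genes is near them. Taking each gene at its largest called rise, the first 3 were all in U2OS cells on day 2, SLC7A11 (0.74, adjusted p = 1.71e-08), the cystine importer, CEBPB (0.56, adjusted p = 3.62e-05), a transcription factor that partners with ATF4, and PHGDH (0.38, adjusted p = 0.00229), the first enzyme of serine synthesis, and these 3 calls held throughout. The 4 falls were SLC7A1, an arginine and lysine transporter, in hTERT-RPE1 cells on day 3 (-0.45, adjusted p = 0.00889), EPRS, a tRNA synthetase, in U2OS cells on day 3 (-0.44, adjusted p = 0.00486) and day 2 (-0.33, adjusted p = 0.000175), and SLC7A11 in hTERT-RPE1 cells on day 2 (-0.23, adjusted p = 0.0313). Both EPRS calls held throughout. The SLC7A1 call was lost without hTERT-RPE1 control replicate 2 or CASP8AP2 replicate 2 (-0.39 and -0.43, adjusted p = 0.0572 and 0.0753), and the SLC7A11 call of hTERT-RPE1 cells without any array but control replicate 1 (-0.25 to -0.18, adjusted p 0.0536 to 0.146). The median over the 12 targets was 0.13 in U2OS cells on day 2 and -0.10 in hTERT-RPE1 cells on day 3, beside -0.012 and -0.032 over all genes. Under HINFP siRNA 4 of the 12 fell in U2OS and 2 in hTERT-RPE1 cells, where 4.84% and 2.01% of all genes were called lower. Under NPAT siRNA limma called 0 of the 12 in either line, where 2 in U2OS and 2 in hTERT-RPE1 cells had an unadjusted p under 0.05. Of all genes 3.84% were called higher and 4.29% lower with NPAT siRNA in U2OS cells, and 2.37% and 2.67% in hTERT-RPE1 cells. The 3 rises of U2OS cells on day 3 were CEBPB, SLC7A11 and SLC1A5, a glutamine transporter. SLC7A11 was lost without any one of the 4 arrays (0.29 to 0.41, adjusted p 0.0672 to 0.245), CEBPB without replicate 1 of either group (0.41 each, adjusted p = 0.0567 and 0.061) and SLC1A5 without control replicate 2 or CASP8AP2 replicate 1 (0.30 to 0.33, adjusted p 0.0928 to 0.105). The HINFP falls in U2OS cells, SLC7A11 (-0.41), IARS (-0.39), YARS (-0.36) and SLC1A5 (-0.35), were each lost without any one of at least 3 of the 4 arrays (adjusted p 0.0519 to 0.236), and so was SLC7A1 in hTERT-RPE1 cells (-0.35, adjusted p 0.0573 to 0.288), while SLC1A5 there (-0.49) was lost without any one of 2 (adjusted p 0.0512 to 0.113). IARS and YARS are tRNA synthetases, and these HINFP and day 3 genes were named after their values were seen.

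Of 47 listed chaperones and degradation factors of the endoplasmic reticulum 7 were paired. Under CASP8AP2 siRNA 1 and 2 of the 7 rose in U2OS cells on days 1 and 2, where 2.86% and 11.8% of all genes were called higher. In hTERT-RPE1 cells 2 of the 7 rose on day 2, beside 4.25% of all genes. None of the 7 was called in the other comparisons of an siRNA with control. DNAJB9 (ERdj4), a co-chaperone of HSPA5, rose under CASP8AP2 siRNA in U2OS cells on days 1 and 2 (0.52 and 0.53, adjusted p = 0.000433 and 7.01e-05) and in hTERT-RPE1 cells on day 2 (0.54, adjusted p = 0.000267). Its call of day 1 in U2OS cells was lost in a fit of only the arrays compared, and its calls of day 2 held throughout. ERP44, which retains secretory proteins, rose on day 2 in hTERT-RPE1 (0.19, adjusted p = 0.0231) and U2OS cells (0.14, adjusted p = 0.0421), calls that were lost without any one of 5 and 4 of the 6 arrays (0.17 to 0.20, adjusted p 0.0528 to 0.0896, and 0.11 to 0.14, adjusted p 0.0864 to 0.188). The other 5, CALR, PDIA4, P4HB, HERPUD1 and TXNDC11, were not called in any comparison of an siRNA with control. Between siRNAs on day 3 of hTERT-RPE1 cells, 1 of the 7 was called higher with NPAT than with CASP8AP2 siRNA. With HINFP 1 of the 7 was likewise called higher than with CASP8AP2 siRNA. In these comparisons 2.38% and 3.81% of all genes were called in either direction. None of the 23 listed sensors and eIF2 alpha regulators was paired. Of 21 genes of the heat shock response 2 were paired. HSPD1, a mitochondrial chaperone, fell in U2OS cells on day 2 (-0.30, adjusted p = 0.00795), where 13.1% of all genes were called lower. The paired genes are a small and screened share of each list and do not speak for the lists.

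**Figure D5:**
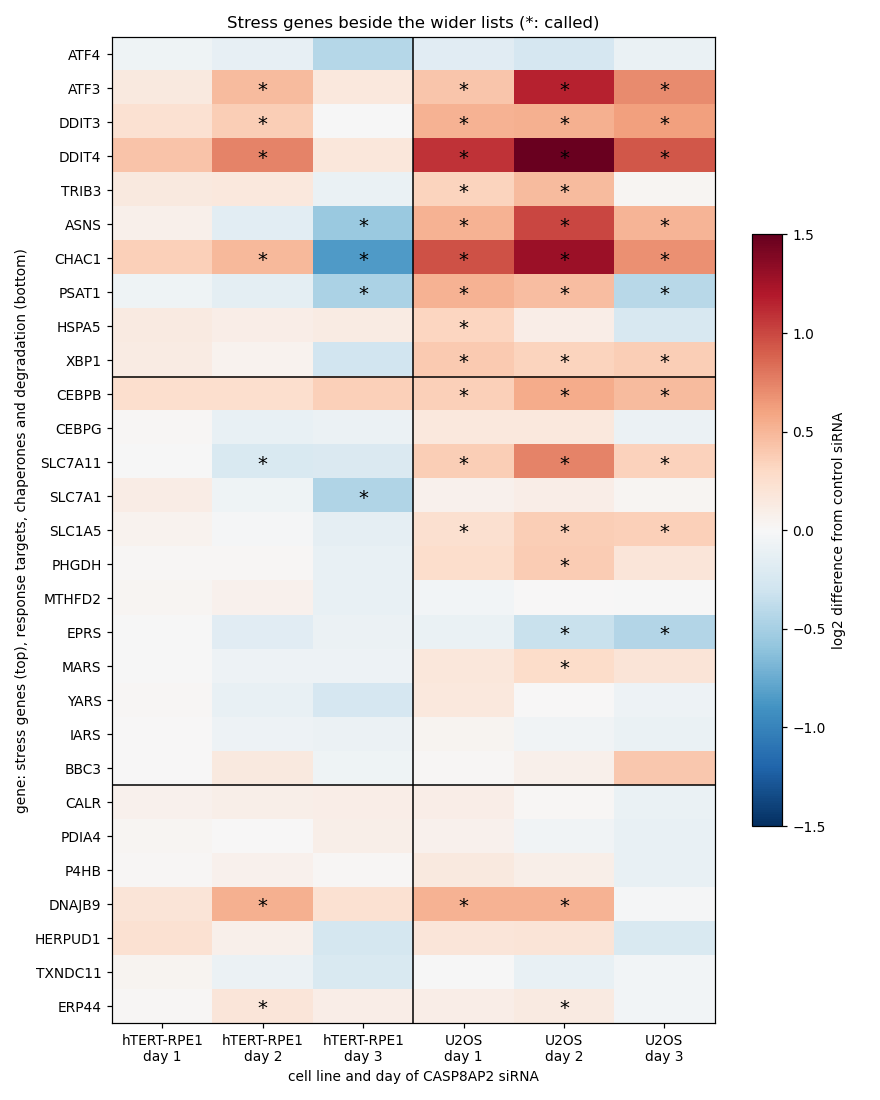
Log2 difference between CASP8AP2 and control siRNA (colour scale) for the 10 stress genes, 12 further stress response targets and 7 endoplasmic reticulum chaperones and degradation factors (rows), by cell line and day (columns); stars mark called genes. Red cells with stars gather in the U2OS columns of the upper blocks, and in the lowest block only DNAJB9 and ERP44 carry stars.

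Among the 1924 genes with a symbol, those whose values followed ASNS most closely across arrays were sought after the mean of each line was removed. They were MARS (Pearson's r of 0.89 over the 24 arrays of days 1 and 2 and 0.82 over the 16 of day 3), PHGDH (0.82 and 0.79), SLC1A5 (0.73 and 0.81), ITGAX (0.79 and 0.73) and VIP (0.81 and 0.66). MARS is a methionyl-tRNA synthetase. Of the other 9 stress genes CHAC1 (0.87 and 0.78) and DDIT3 (0.82 and 0.67) followed ASNS in both sets, whereas ATF4 had r of -0.50 and 0.49. For HSPA5 the closest were SLC40A1 (0.57 and 0.71), ATP6V1A (0.73 and 0.56), ADA (0.64 and 0.56), MPP4 (0.57 and 0.53) and FST (0.56 and 0.53). HSPA5 and XBP1 had r of 0.68 on days 1 and 2 and -0.66 on day 3. These values are a description, since the arrays share groups, days and normalization.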

How the data were processed

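Affymetrix Human WT arrays measured transcripts in 40 samples of 2 cell lines. The authors deposited log2 expression values for 22069 Ensembl genes, made with RMA per the submitters' processing notes and summarised with a custom probe annotation whose version and genome build are not given in the sources used here. Depth does not apply to arrays, and the 2 or 3 arrays per group limit the precision. Symbols of the 10 genes come from the rule that chose them, and the authors' screen table also pairs 2 of them. That table pairs 1924 of the 22069 genes with a symbol (8.72%), and only such genes could be read in the wider lists. The authors' z-scores of the screen were not used.

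The arrays of days 1 and 2 (24) and of day 3 (16) were fitted apart, since their distributions differ, with lmFit and eBayes of limma 3.58.1 in R 4.3.3, with group means as terms, two-sided, at an adjusted p of 0.05 (Benjamini-Hochberg over all genes). In all, 26 comparisons were made. The fits were tested on simulated data. The 10 genes, the gene lists and the motifs were chosen with earlier results of these data known. All 10 genes are named in every comparison by value or count. From each wider list up to 3 genes with the largest called rises and up to 3 with the largest called falls under CASP8AP2 siRNA were named, and the genes most like ASNS and HSPA5 were the 5 with the highest value of the lower of the correlations in the 2 sets, after subtracting the mean of each line. Alternatives were median centring, cyclic loess, omission of the dimmer genes (11034 kept), a replicate block, a fit of only the arrays compared, omission of each array in turn, and a minimum change of 0.5 on the log2 scale. Promoter windows were read from RefSeq (GRCh38.p14).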

Additional observations from a re-analysis of the deposited data

Results flagged for a closer look

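The response to CASP8AP2 siRNA differed between the lines by the interaction test (limma), with a more positive effect in U2OS cells each time. The log2 differences on day 1 were 0.66 for DDIT4, 0.45 for ASNS, 0.59 for CHAC1 and 0.59 for PSAT1. The calls of DDIT4, ASNS and CHAC1 on day 1 were lost without any one of 10, 11 and 8 of the 12 arrays. With the replicate block every day 1 call was lost, that of PSAT1 included. On day 2 they were 0.68 for ATF3, 0.73 for DDIT4, 1.16 for ASNS, 0.80 for CHAC1, 0.61 for PSAT1 and 0.28 for XBP1. On day 3 they were 0.55 for ATF3, 0.62 for DDIT3, 0.76 for DDIT4, 1.07 for ASNS, 1.54 for CHAC1 and 0.65 for XBP1. Under NPAT siRNA the lines differed by 1.10 in DDIT4, 0.62 in ASNS and 0.76 in CHAC1, and under HINFP siRNA by 0.73 in CHAC1. As given above, the calls of XBP1 on day 2 and of DDIT3 and ATF3 on day 3 were lost without some single arrays. So were those of ASNS and CHAC1 under NPAT siRNA and of CHAC1 under HINFP siRNA. CASP8AP2 siRNA left less of its target in U2OS cells, and the lines were grown in different media. The part of either in the differences was not tested.

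The effect of CASP8AP2 siRNA differed between days 1 and 2 in U2OS cells by 0.73 for ATF3 and 0.48 for ASNS.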

How the results depend on the processing

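Counts of the 10 genes called are listed where they changed by more than 1.5 times, or to or from 0. Smaller moves are not listed, and the reported count is in parentheses. Without dim genes CASP8AP2 siRNA in hTERT-RPE1 cells had 2 on day 1 (0) and 5 on day 3 (3), and NPAT siRNA in U2OS cells 5 (3). With only the arrays compared, CASP8AP2 siRNA in hTERT-RPE1 cells had 1 on day 2 (4) and 1 on day 3 (3), NPAT 0 (2) and HINFP 0 (3), the line difference 1 for CASP8AP2 on day 1 (4) and 0 for HINFP (1), NPAT minus CASP8AP2 0 in hTERT-RPE1 (2) and 0 in U2OS (1), HINFP minus CASP8AP2 in U2OS 0 (4), and the day difference of hTERT-RPE1 controls 0 (5); these fits have fewer residual degrees of freedom. Median centring gave 1 for HINFP siRNA in hTERT-RPE1 cells (3) and line differences of 1 for CASP8AP2 on day 1 (4), 1 for NPAT (3) and 0 for HINFP (1), and cyclic loess 2 for CASP8AP2 on day 1 (4). With a minimum change of 0.5, counts were 1 for CASP8AP2 siRNA on day 2 in hTERT-RPE1 (4), 0 for NPAT (2) and 1 for HINFP (3) there, 5 and 5 for CASP8AP2 siRNA in U2OS on days 1 and 2 (9 and 8), 1 for the day difference in U2OS (2), 1 and 0 for NPAT minus CASP8AP2 in hTERT-RPE1 and U2OS (2 and 1), 2 for HINFP minus CASP8AP2 in U2OS (4), 4, 3 and 4 between control lines (7, 6 and 7), and 1 and 2 between control days in hTERT-RPE1 and U2OS (5 and 6).

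Whether replicate numbers pair the samples was not settled. After group means were removed, same-numbered arrays correlated across genes between -0.10 and 0.21. On day 3, with 2 arrays per group, the value for other-numbered arrays is fixed as the same number with the opposite sign. By the same rule for listing, with the replicate block the line difference had 0 for CASP8AP2 on day 1 (4) and 0 for HINFP (1). NPAT minus CASP8AP2 in hTERT-RPE1 had 1 (2), and control days had 1 in hTERT-RPE1 (5) and 3 in U2OS (6).

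Leaving out 1 array in turn gave 0 to 1, 2 to 4 and 1 to 3 for CASP8AP2 siRNA on days 1, 2 and 3 in hTERT-RPE1, 7 to 9, 8 to 9 and 4 to 7 in U2OS, 0 to 2 and 0 to 1 for NPAT and HINFP in hTERT-RPE1, and 2 and 3 to 4 in U2OS. Line differences gave 1 to 3, 5 to 6 and 4 to 7 for CASP8AP2, 1 to 3 for NPAT and 0 to 1 for HINFP. Day differences gave 0 and 2, NPAT minus CASP8AP2 0 to 1 in either line, HINFP minus CASP8AP2 0 in hTERT-RPE1 and 1 to 3 in U2OS, control lines 6 to 7, 6 and 6 to 7, and control days 3 to 4 and 4 to 6.

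Of 260 differences of the 10 genes 102 were called, 57 of these held under every alternative apart from the minimum change, and 0 changed sign. Of the 158 not called 20 gained a call somewhere and 36 changed sign. The causes of these changes were not tested. Counts over all genes fell by more than 1.5 times in 18 of 26 comparisons with only the arrays compared, in 6 with the replicate block, and in 56 of 164 fits that left out 1 array, and without dim genes 1 of 26 rose by more than that. Array signal has no measured floor here, so small changes of dim genes are the least certain.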
